A study of Homo sapiens with 6 samples.

Results

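The genes examined here are 34 targets of the integrated stress response, the group headed by the transcription factor ATF4 together with the enzymes, transporters and stress genes placed under it. They were chosen by name and not by a rule on their measured values, though earlier results of these data were known. All 34 were found among the 27605 genes of the expression table. In the integrated stress response, kinases that sense amino acid shortage, unfolded protein in the endoplasmic reticulum (ER), haem shortage or viral RNA phosphorylate the translation factor eIF2α. General protein synthesis then slows, while ATF4, whose messenger RNA carries short upstream reading frames, is translated more. ATF4 pairs with C/EBP factors and switches on genes for amino acid synthesis and import, for mitochondrial one-carbon metabolism, and for feedback and cell death. The arms of the ER stress response run by XBP1 and ATF6 act mainly on chaperones and on the machinery that clears misfolded protein. Since ATF4 is controlled largely at translation, its own mRNA level is not a measure of its activity.

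The data were mRNA sequencing libraries of cells labelled HepG2, a human liver cancer line. In 3 libraries (shNC) the cells carried a control hairpin and are labelled wild type, and in 3 libraries (shARHGEF2) a lentivirus was used to knock down ARHGEF2, an exchange factor that activates the small GTPase RhoA. No drug or ER stressor is named for these libraries, so both groups describe cells in ordinary growth medium with serum. The number of hairpins is not given, nor whether the libraries of a group came from separate cultures, so p-values measure the spread between these libraries only. ARHGEF2 stood at 13.0, 14.4 and 13.9 FPKM (fragments per kilobase of transcript, relative to the size of the library) in shNC replicates 1 to 3 and at 4.25, 4.0 and 4.82 FPKM in shARHGEF2 replicates 1 to 3. It fell by 1.47 on the log2(FPKM + 1) scale (SE 0.11, limma adjusted p = 0.00244).

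The label HepG2 was checked against liver markers. Of 18 hepatocyte genes listed, 10 were in the table and only VTN passed the filter, at a mean of 5.95 FPKM. AFP, APOA1, SERPINA1 and HNF4A, which define HepG2 cells, did not exceed 0.248 FPKM in any library. ALB was listed but was not among the 10 found. KRT8, KRT18 and KRT19, keratins of simple epithelium, had means of 153, 175.5 and 67.6 FPKM, while EPCAM and CDH1 were near 0. LUM, a proteoglycan gene of connective tissue, had a mean of 29.9 FPKM. Among the other fibroblast markers, COL1A1, COL3A1 and DCN had means of 7.52, 4.61 and 2.12 FPKM, and COL1A2 and PDGFRA were near 0. The defining liver markers were thus absent, and the cells are called here by their label only. The summed level of the hepatocyte list was 6.02 to 6.24 FPKM in shNC and 6.70 to 7.70 FPKM in shARHGEF2. Most of it was VTN alone, at 5.51 to 5.55 FPKM in shNC and 6.26 to 6.60 FPKM in shARHGEF2. APOA1 went the other way, with means of 0.138 and 0 FPKM. For the 6 fibroblast markers, of which LUM was the most abundant, the summed level was 39.2 to 52.1 and 38.1 to 45.1 FPKM. The 4 tested had 2 positive and 2 negative log2 differences, from -0.26 (LUM) to 0.39 (COL1A1), with a median of -0.07. The part of any such difference in the results below was not tested. Bulk RNA cannot tell fewer cells of a kind from less RNA per cell.

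The upstream sequences of the genes show which control elements their windows hold. Of the 34 genes, 29 had an entry among the RefSeq promoters (GRCh38.p14), each covering 250 bases before and 50 bases after the start, and PYCR1, PSPH, NUPR1, ALDH1L2 and SHMT2 are named only. The core of the C/EBP-ATF element, TGATGNAA on either strand, to which ATF4 and its partners bind, was found in 5 of 29 windows (17.2%), those of ASNS, CHAC1, MTHFD1L, SLC3A2 and SLC7A1. It was found in 1 of 21 windows of ER chaperone genes and in 3.67% of 27305 windows of all genes. The matches of SLC3A2 and SLC7A1 lay after the start. ASNS, CHAC1 and MTHFD1L are shown here because their matches lay before the RefSeq start, with the element in capitals (in CHAC1 as TTGCATCA, which holds the core on the other strand). By the GENCODE 29 gene models, whose outermost starts lie further out, all 3 of these windows, and that of DDIT3 below, fall inside the gene.

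ASNS, chr7:97872454-97872491, minus strand: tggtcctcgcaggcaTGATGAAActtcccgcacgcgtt
CHAC1, chr15:40953247-40953284, plus strand: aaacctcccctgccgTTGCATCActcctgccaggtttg
MTHFD1L, chr6:150866342-150866379, plus strand: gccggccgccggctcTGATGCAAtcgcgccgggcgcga

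The ER stress response element of chaperone genes, CCAAT, any 9 bases and then CCACG on either strand, was found in 0 of 29 windows of the ATF4-linked genes, in 5 of 21 windows of ER chaperone genes (23.8%) and in 0.081% of all windows. Without its last base, the element was found in 1 of 29 windows, that of DDIT3, in 6 of 21 ER chaperone windows (28.6%) and in 0.326% of all windows, and the shorter form lies within the longer. DDIT3 is shown because it carries the chaperone type of element among the ATF4-linked genes, HSPA5 because it encodes the main ER chaperone, and HERPUD1 because its window held both the C/EBP-ATF element and the shorter ER element. DDIT4 is shown as the one gene of the group called below, with the hypoxia response core TACGTG in capitals, which was found in 2 of 29 windows (also in SLC1A4) and in 3.33% of all windows. The shorter ER element and the hypoxia core, and the genes printed, were chosen after the sequences and values had been seen.

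DDIT4, chr10:72273783-72273818, plus strand: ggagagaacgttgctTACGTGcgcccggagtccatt
DDIT3, chr12:57520582-57520629, minus strand: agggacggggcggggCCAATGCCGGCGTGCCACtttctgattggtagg
HSPA5, chr9:125241376-125241424, minus strand: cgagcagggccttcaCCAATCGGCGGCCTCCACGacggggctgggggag
HERPUD1, chr16:56931951-56931988, plus strand: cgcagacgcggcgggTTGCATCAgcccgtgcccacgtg
HERPUD1, chr16:56932044-56932091, plus strand: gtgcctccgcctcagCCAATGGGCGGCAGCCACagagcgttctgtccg

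These matches are descriptions of letters in a window. None of the 5 motifs searched was found in the windows of ATF4, SLC7A5, STC2, SLC1A5 or PSAT1, which says nothing of factors that act elsewhere.

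Expression of the group spanned a wide range without any stressor. CEBPB, a C/EBP factor that pairs with ATF4, was the most abundant, with a mean of 354 FPKM over the 6 libraries. SLC7A5, the light chain of the LAT1 transporter of large neutral amino acids, followed at 259 FPKM, and DDIT4, or REDD1, a brake on the growth kinase complex mTORC1, at 194.5 FPKM. VLDLR, a lipoprotein receptor, and NUPR1, a small nuclear stress protein, were at the low end, with means of 1.31 and 1.68 FPKM. ALDH1L2, a mitochondrial formyl folate dehydrogenase, did not exceed 0.0334 FPKM in any library, and it was the 1 of 34 genes that did not reach the mean of 0.5 FPKM needed for testing. ASNS, asparagine synthetase, a widely used readout of the response, was the lowest of the amino acid synthesis genes, with a mean of 3.23 FPKM. ATF4 itself had a mean of 14.4 FPKM. Summed over the group, the level was 1505 to 1529 FPKM in shNC and 1385 to 1463 FPKM in shARHGEF2.

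**Figure D1:**
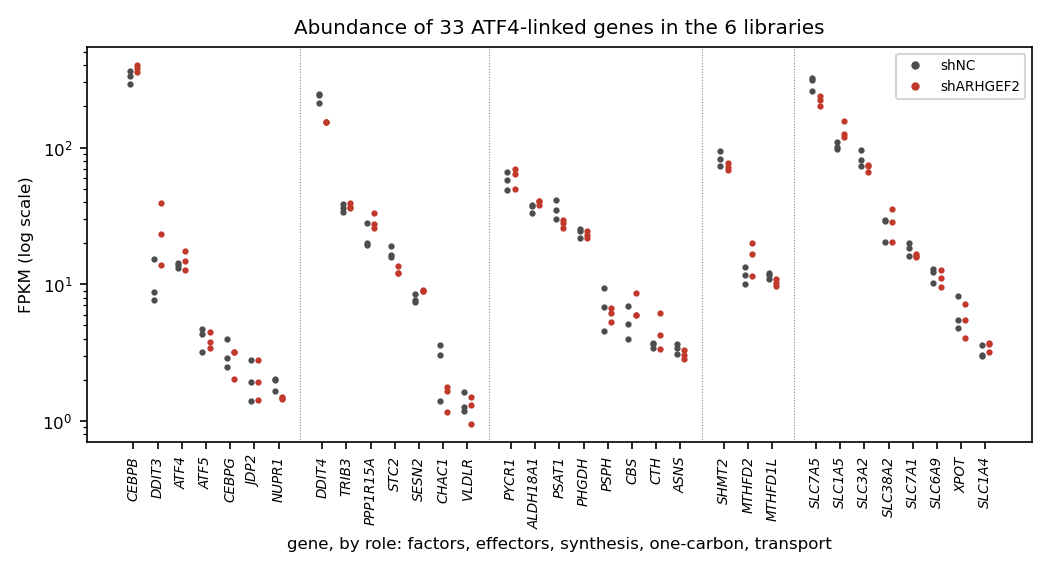
FPKM on a log axis for the 33 tested genes, ordered by role and then by level, with 1 point for each library (grey, shNC; red, shARHGEF2). The points of both groups lie close together for most genes over a range from about 1 FPKM (VLDLR) to over 100 FPKM (CEBPB), and DDIT4 and SLC7A5 are the abundant genes whose red points all lie below the grey.

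The knockdown was compared with the control to ask whether ATF4-linked expression moved with loss of ARHGEF2. The estimates lay on both sides of 0. Of the 33 genes tested, 1 was called at an adjusted p under 0.05, DDIT4, which was lower, against 0.277% of the 12291 genes tested (0.0814% lower and 0.195% higher). At an unadjusted p under 0.05 there were 7 of 33 (21.2%), 3 higher and 4 lower in shARHGEF2, where all genes tested gave 13.7% (8.1% higher and 5.55% lower). The 3 libraries of each group did not overlap for 7 of 33 genes (21.2%), 2 higher and 5 lower, close to the 20.5% of all genes tested (11.3% higher and 9.17% lower). The log2 difference was positive for 15 genes and negative for 18, and its median was -0.05, beside -0.0016 over all genes tested.

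**Figure D2:**
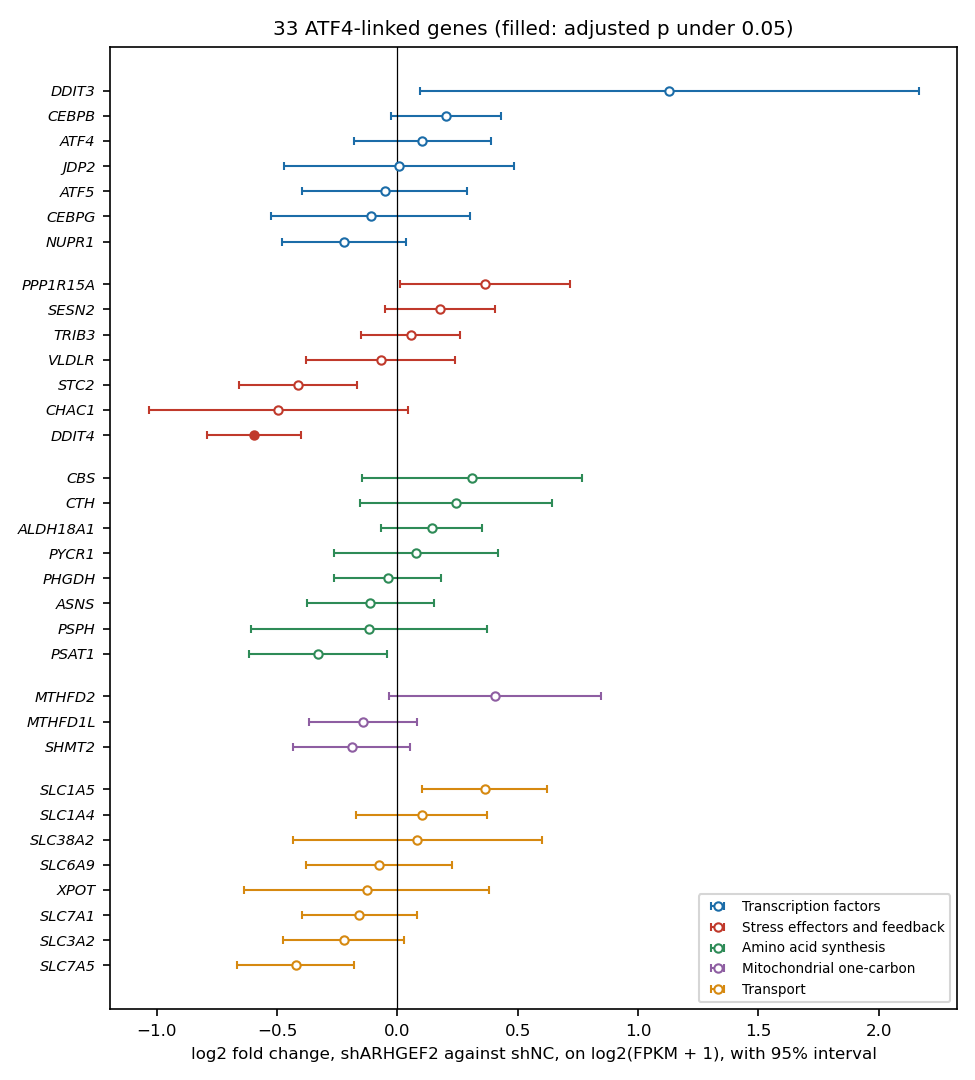
Log2 fold change of shARHGEF2 against shNC on log2(FPKM + 1), with the 95% interval from limma, for the 33 tested genes grouped and coloured by role; a filled point marks an adjusted p under 0.05. Only DDIT4 (-0.60) is filled, the intervals of most genes cross 0, and genes on both sides of 0 appear in every role.

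Among the transcription factors, ATF4 mRNA gave no detectable difference and DDIT3 gave the largest estimate of the group with the widest interval. ATF4 (GRCh38 chr22:39519695-39522685, plus strand) stood at 13.2, 13.8 and 14.4 FPKM in shNC and at 17.5, 14.8 and 12.6 FPKM in shARHGEF2. The knockdown libraries thus lay on both sides of the controls, and the log2 difference was 0.10 (95% interval -0.18 to 0.39, limma adjusted p = 0.789). DDIT3 (chr12:57516588-57521737, minus strand) encodes CHOP, a C/EBP family factor that ATF4 induces under lasting stress and that favours cell death. It stood at 8.77, 7.73 and 15.2 FPKM in shNC and at 13.8, 39.0 and 23.5 FPKM in shARHGEF2. The highest control library lay above the lowest knockdown library, so the groups overlapped, and the knockdown group varied widely (25.4 ± 12.7 FPKM against 10.6 ± 4.05 FPKM, SD, n = 3). The log2 difference of DDIT3 was 1.13 (95% interval 0.09 to 2.17, unadjusted p = 0.0375, limma adjusted p = 0.336), and it ranged from 0.77 to 1.49 as single libraries were left out. Exons of DDIT3 overlap those of MARS1 and MBD6 on the other strand, and whether the counting used strand is not stated. MARS1 and MBD6 had log2 differences of -0.04 and 0.14, and the part of shared reads in the DDIT3 values was not tested. The transcript AC022506.1, which shares exon sequence with DDIT3 on the same strand, was not analysed here.

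For the C/EBP partners of ATF4, the differences were small. CEBPB stood at 331, 294 and 365 FPKM in shNC and at 402, 379.7 and 354 FPKM in shARHGEF2, with a log2 difference of 0.20 (limma adjusted p = 0.424). CEBPG gave -0.11 (limma adjusted p = 0.854). NUPR1 stood at 2.02, 1.99 and 1.65 FPKM in shNC and at 1.48, 1.44 and 1.49 FPKM in shARHGEF2, so its groups did not overlap, but the log2 difference of -0.22 did not pass (limma adjusted p = 0.432). ATF5, a factor with upstream reading frames like those of ATF4, and JDP2, a repressor of the AP-1 family, gave -0.05 and 0.01.

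The stress effectors and feedback genes held the called gene, and their estimates lay on both sides of 0. DDIT4 (chr10:72273920-72276036, plus strand) stood at 242, 248 and 213 FPKM in shNC and at 154, 155 and 155 FPKM in shARHGEF2. All 3 knockdown libraries lay below all controls and within 1 FPKM of each other (154.5 ± 0.251 FPKM against 234.6 ± 18.7 FPKM, SD, n = 3). DDIT4 fell by 0.60 on the log2 scale (SE 0.09, 95% interval -0.79 to -0.40, limma adjusted p = 0.0395), ranking 25 by p among all genes tested, and the exact permutation test gave its smallest possible p of 0.1. The direction held in all 13 alternative analyses, with estimates from -0.67 to -0.55, but the call was kept in 3 of them only, with adjusted p from 0.0266 to 0.271. Leaving out any library other than shNC replicate 3 ended the call, with adjusted p from 0.104 to 0.132. Exons of DDIT4 overlap those of DDIT4-AS1 on the other strand, which was not analysed here.

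STC2, a secreted glycoprotein of calcium and phosphate handling, was also lower without overlap. It stood at 15.9, 16.4 and 19.0 FPKM in shNC and at 12.0, 13.7 and 12.1 FPKM in shARHGEF2, a log2 difference of -0.41 (limma adjusted p = 0.158). PPP1R15A, or GADD34, which recruits the phosphatase that resets eIF2α, pointed the other way. Its values were 20.1, 19.3 and 28.0 FPKM in shNC and 27.8, 33.3 and 25.9 FPKM in shARHGEF2, overlapping through shNC replicate 3, with a log2 difference of 0.36 (unadjusted p = 0.0446, limma adjusted p = 0.356). SESN2, a leucine sensor that restrains mTORC1 as DDIT4 does, stood at 7.68, 7.44 and 8.49 FPKM in shNC and at 8.99, 9.15 and 8.91 FPKM in shARHGEF2. Its groups did not overlap, and the log2 difference of 0.18 did not pass (limma adjusted p = 0.481), so of these 2 brakes on mTORC1 only DDIT4 was called. The difference between the 2 genes was not tested.

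CHAC1, an enzyme that splits glutathione and one of the genes most closely tied to ATF4, stood at 3.58, 3.02 and 1.41 FPKM in shNC and at 1.76, 1.16 and 1.65 FPKM in shARHGEF2. Its shNC replicate 3 lay among the knockdown libraries, and the log2 difference was -0.49 (95% interval -1.03 to 0.04, limma adjusted p = 0.406). As single libraries were left out, the difference of CHAC1 ranged from -0.77 to -0.31. The ends were the fits without shNC replicate 3 (limma adjusted p = 0.0806) and without shNC replicate 1 (limma adjusted p = 0.692). TRIB3, a pseudokinase that binds AKT and ATF4 and is induced with CHOP, had means of 36.1 ± 2.27 and 37.5 ± 1.79 FPKM and a log2 difference of 0.05 (95% interval -0.15 to 0.26). VLDLR stood at 1.26, 1.62 and 1.19 FPKM in shNC and at 0.955, 1.49 and 1.31 FPKM in shARHGEF2, a difference of -0.07 (95% interval -0.38 to 0.24).

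**Figure D3:**
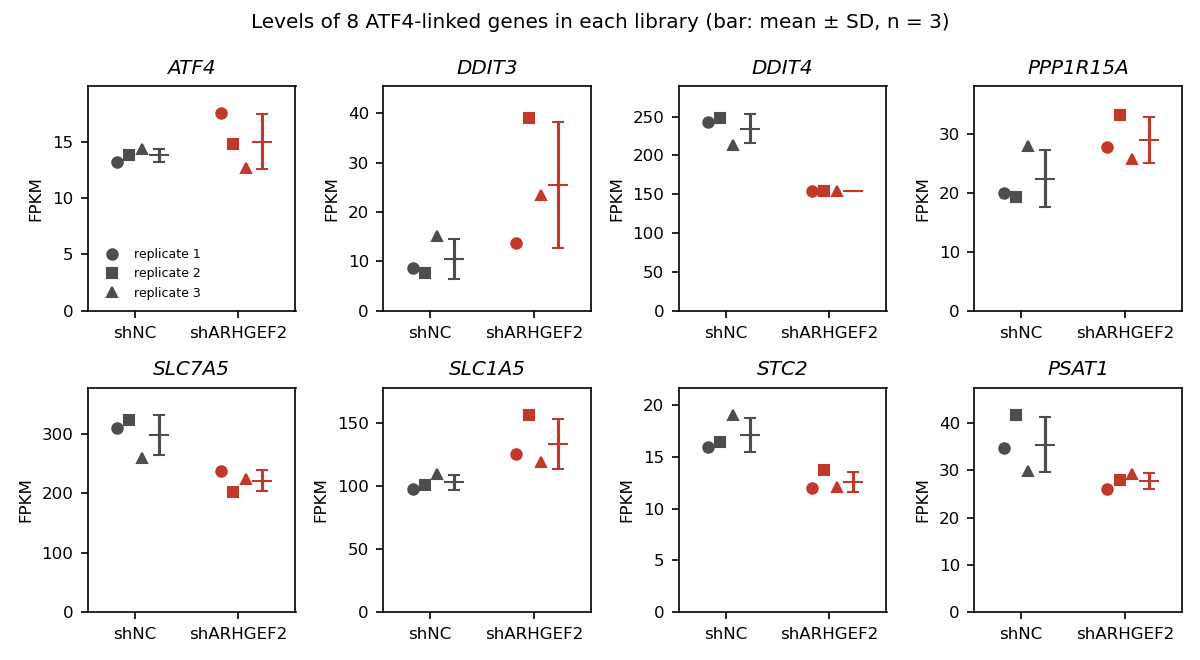
FPKM in each library for 8 genes, with a marker for each replicate number and the mean ± SD of 3 libraries beside each group; all axes start at 0. DDIT4, SLC7A5, STC2 and PSAT1 are lower and SLC1A5 is higher in shARHGEF2 without overlap, while the 2 groups overlap for ATF4, DDIT3 and PPP1R15A.

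Amino acid synthesis genes showed no shared direction. Of 8 tested, 4 had positive and 4 negative log2 differences, with a median of 0.02, and 1 reached an unadjusted p under 0.05. That gene was PSAT1, the second enzyme of serine synthesis, at 34.8, 41.6 and 29.9 FPKM in shNC and 26.0, 28.0 and 29.3 FPKM in shARHGEF2. All its knockdown libraries lay below all controls, the nearest by under 1 FPKM, and the log2 difference was -0.33 (95% interval -0.62 to -0.05, limma adjusted p = 0.302). PHGDH and PSPH, the first and the last enzyme of the same path, gave -0.04 (95% interval -0.26 to 0.18) and -0.12 (95% interval -0.61 to 0.37). ASNS stood at 3.11, 3.68 and 3.39 FPKM in shNC and at 3.03, 2.86 and 3.31 FPKM in shARHGEF2. Its values overlapped, and the log2 difference was -0.11 (95% interval -0.38 to 0.15).

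The proline pair gave small positive values. PYCR1, which closes proline synthesis in mitochondria, stood at 57.5, 48.9 and 66.0 FPKM in shNC and at 69.3, 63.9 and 49.4 FPKM in shARHGEF2, a wide scatter in both groups, with a log2 difference of 0.08. ALDH18A1, the first enzyme of that path, gave 0.14 (95% interval -0.07 to 0.35). CBS and CTH, which pass sulfur from homocysteine to cysteine, gave 0.31 (95% interval -0.15 to 0.77) and 0.24 (95% interval -0.16 to 0.64). For CTH the higher mean came from shARHGEF2 replicate 3, at 6.12 FPKM, where the other libraries ranged from 3.35 to 4.23 FPKM.

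The enzymes of the 3 mitochondrial one-carbon genes tested move carbon from serine to formate. In the main fit none of these genes was called by limma or reached an unadjusted p under 0.05. SHMT2, the serine hydroxymethyltransferase, stood at 83.1, 73.3 and 93.7 FPKM in shNC and at 77.7, 68.9 and 71.5 FPKM in shARHGEF2, a log2 difference of -0.19 (95% interval -0.43 to 0.05). MTHFD2, the methylene folate dehydrogenase and a common marker of the response, stood at 10.0, 13.5 and 11.7 FPKM in shNC and at 11.6, 20.1 and 16.7 FPKM in shARHGEF2. Its log2 difference was 0.41 (95% interval -0.03 to 0.84, limma adjusted p = 0.403). It was 0.24 without shARHGEF2 replicate 2 and 0.61 without shARHGEF2 replicate 1, when the groups no longer overlapped (limma adjusted p = 0.715 and 0.205). MTHFD1L, the formyl folate synthetase, stood at 11.0, 12.0 and 11.7 FPKM in shNC and at 9.79, 11.0 and 10.3 FPKM in shARHGEF2, a difference of -0.14. The estimate of MTHFD2 thus had the other sign from those of its neighbours in the path, with intervals that overlap.

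The transporters included 2 abundant genes with opposite estimates. SLC7A5 (chr16:87830023-87869488, minus strand) stood at 310.1, 322 and 259.9 FPKM in shNC and at 237, 202 and 224 FPKM in shARHGEF2. All 3 knockdown libraries lay below the controls, and the log2 difference was -0.42 (SE 0.11, limma adjusted p = 0.148, unadjusted p = 0.00358). SLC3A2, the CD98 heavy chain that partners LAT1 at the membrane, had means of 83.4 ± 11.2 and 70.9 ± 4.25 FPKM, with overlap and a log2 difference of -0.22 (95% interval -0.47 to 0.03). SLC1A5, or ASCT2, which imports glutamine and other neutral amino acids, stood at 98.1, 101.1 and 109.8 FPKM in shNC and at 125, 156 and 119 FPKM in shARHGEF2. All its knockdown libraries lay above the controls, with a log2 difference of 0.36 (SE 0.11, unadjusted p = 0.0118, limma adjusted p = 0.229). The exact permutation test gave 0.1, the smallest p possible for 3 against 3 libraries, for SLC7A5 and for SLC1A5.

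SLC1A4, a transporter of alanine, serine and cysteine and the lowest of this role, stood at 3.00, 3.61 and 3.05 FPKM in shNC and at 3.71, 3.21 and 3.65 FPKM in shARHGEF2. The groups overlapped, with a log2 difference of 0.10. SLC7A1, a carrier of cationic amino acids, SLC6A9, a glycine transporter, and XPOT, which exports tRNA from the nucleus, gave -0.16, -0.08 and -0.13. SLC38A2, or SNAT2, a sodium-coupled carrier that cells raise when amino acids run short, gave 0.08 (95% interval -0.43 to 0.60).

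The ER chaperone arm was taken as 24 genes of folding and ER-associated degradation. It is set beside these values because it answers mainly to the other branches of ER stress. The list is not free of the C/EBP-ATF element, which the window of HERPUD1 held, and the part of ATF4 in these genes was not tested. No gene of the arm was called by limma. An unadjusted p under 0.05 was reached by 7 of 24 (29.2%), all higher in shARHGEF2, where all genes tested gave 13.7% (8.1% higher). The groups did not overlap for 7 of 24 (29.2%), 6 higher and 1 lower (DERL2). All genes tested gave 20.5% without overlap (11.3% higher and 9.17% lower). The log2 difference was positive for 20 of 24 genes, with a median of 0.18, where the ATF4-linked genes had 15 of 33 and -0.05 and all genes tested had 6102 of 12291 and -0.0016. The lists themselves were not tested against each other. In single libraries, set against the mean of the controls, the chaperone median was 0.07, 0.28 and 0.18 in the knockdown libraries and -0.08, 0.12 and -0.06 in the controls, so shNC replicate 2 lay above shARHGEF2 replicate 1. The same medians for the ATF4-linked genes were -0.0086, -0.0022 and -0.0502 in the knockdown libraries and -0.0539, 0.0522 and 0.0008 in the controls. All 3 knockdown medians were thus below 0 but within the range of the controls, which lay on both sides of 0.

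HERPUD1 and HSPA5 gave the larger chaperone estimates. HERPUD1, an ER membrane protein of protein degradation, stood at 5.33, 5.74 and 8.23 FPKM in shNC and at 11.7, 18.3 and 10.3 FPKM in shARHGEF2, a log2 difference of 0.94 (limma adjusted p = 0.138). HSPA5, or BiP, the chaperone that holds the ER stress sensors in check, stood at 103, 129 and 133 FPKM in shNC and at 168, 329 and 198 FPKM in shARHGEF2, a difference of 0.87 (limma adjusted p = 0.222). HYOU1, an ER chaperone of the HSP70 family, gave 0.45 (limma adjusted p = 0.136). For these genes all 3 knockdown libraries lay above all controls. shARHGEF2 replicate 2 was the highest of the 6 libraries for 14 of 24 chaperone genes, HSPA5 and HERPUD1 included. Among the 33 ATF4-linked genes it was the highest for 7, which were DDIT3, SESN2, MTHFD2, ALDH18A1, PPP1R15A, SLC1A5 and SLC38A2, and over all genes tested for 21.6%. Without it, the log2 difference of DDIT3 was lower, at 0.77, and that of HSPA5 was 0.59.

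**Figure D4:**
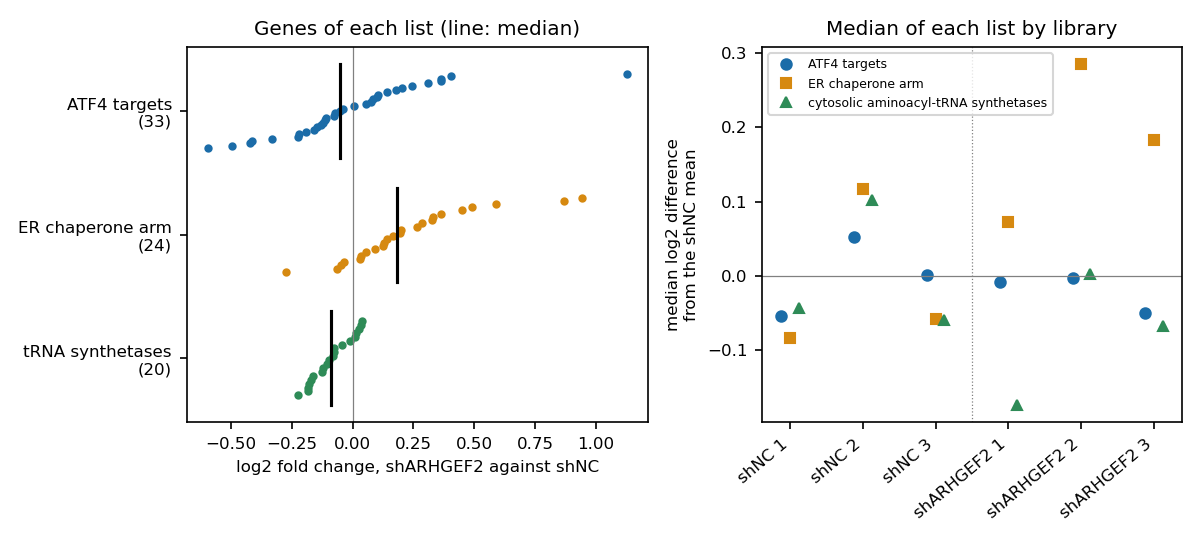
Left, the log2 fold change of each tested gene in 3 lists, with a line at the median; right, the median log2 difference of each list from the shNC mean in each library. The ATF4-linked genes are spread around 0 with a median of -0.05 and their library medians stay between -0.05 and 0.05, while the chaperone genes have a median of 0.18 and their highest library is shARHGEF2 replicate 2.

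No gene upstream of ATF4 passed the test. Of 17 tested genes for the eIF2 kinases, eIF2 and its exchange factor and regulators, limma called 0 and 0 reached an unadjusted p under 0.05, with a median log2 difference of 0.04. PPP1R15B, the constitutive partner of the eIF2α phosphatase, gave 0.38 (limma adjusted p = 0.379) and GCN1, an activator of the amino acid sensing kinase GCN2, gave 0.21 (limma adjusted p = 0.403). The cytosolic aminoacyl-tRNA synthetases, several of which ATF4 controls, also had 0 of 20 called by limma and 0 at an unadjusted p under 0.05. Their log2 differences were small and mostly negative (15 of 20, median -0.09), with SARS1 at -0.13 and IARS1 at -0.18.

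In the annotation carried by the table, the group spreads over several terms. The term for the response to ER stress held 6 of the ATF4-linked genes (ATF4, DDIT3, TRIB3, CEBPB, PPP1R15A and STC2) and 11 of the chaperone genes among 80 genes. Amino acid biosynthesis held 8 of 39 genes, amino acid transport 7 of 47, and the folate one-carbon pool 4 of 19. The mTOR signaling pathway held DDIT4, SESN2, SLC7A5 and SLC3A2 among 146 genes, and of these only DDIT4 was called.

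For some genes the libraries of the same replicate number resembled each other more than those of the same group. JDP2 stood at 1.40, 2.79 and 1.93 FPKM in shNC and at 1.43, 2.78 and 1.94 FPKM in shARHGEF2, so that each number repeated its value. Of the 33 genes, 7 were highest in replicate 1 of both groups, 8 in replicate 2 of both and 0 in replicate 3 of both, where all genes tested gave 10.2%, 25.8% and 6.76%. Of the 24 chaperone genes, 1 was highest in replicate 1 of both groups, 12 in replicate 2 of both and 0 in replicate 3 of both. The 7 genes highest in replicate 1 (such as TRIB3, CHAC1, ATF5 and CBS) had a median GC content of 60.8%, and the 8 highest in replicate 2 (such as SLC38A2, XPOT, CEBPG and MTHFD2) one of 45.2%. Over 12231 genes, Spearman's rank correlation of a library's deviation from the gene mean with GC content was 0.20, -0.47 and 0.14 in shNC replicates 1 to 3 and 0.57, -0.29 and -0.03 in shARHGEF2 replicates 1 to 3. With that trend removed, the log2 difference of DDIT4 was -0.67 (limma adjusted p = 0.0536) and that of DDIT3 1.14 (limma adjusted p = 0.209).

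**Figure D5:**
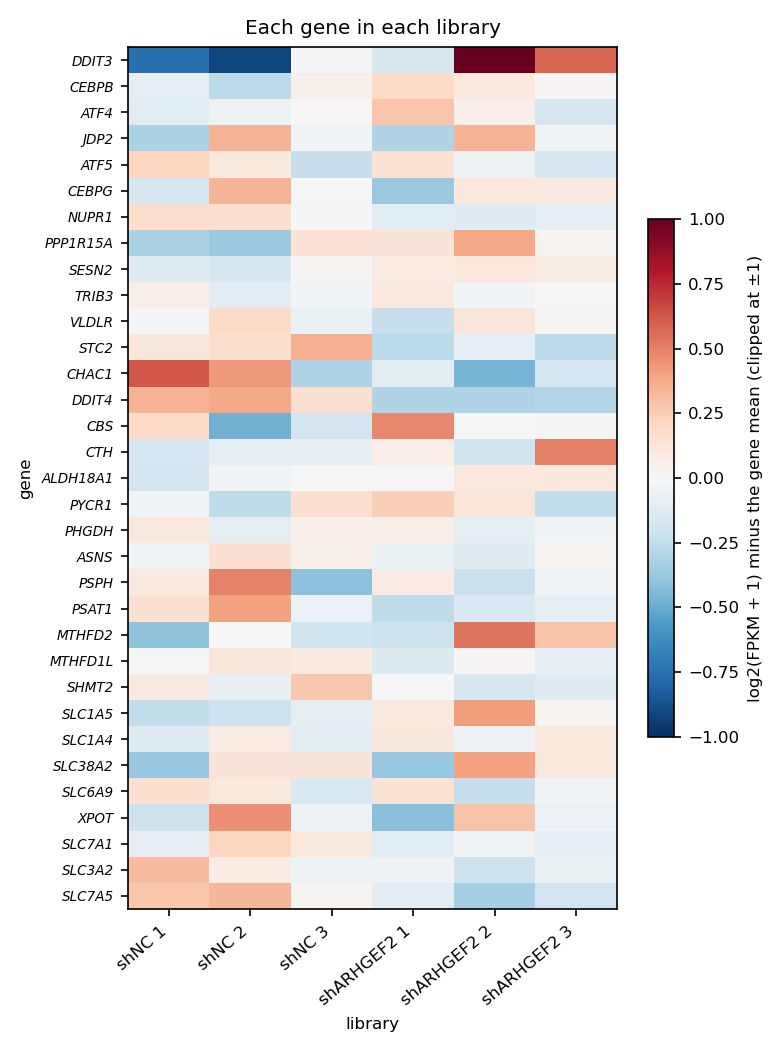
Log2(FPKM + 1) minus the gene's mean over the 6 libraries for the 33 tested genes (rows) in each library (columns), red above and blue below the mean, with colours clipped at 1. DDIT4 separates the groups evenly, DDIT3 reaches its highest value in shARHGEF2 replicate 2, and JDP2 and XPOT repeat the same pattern over replicates 1 to 3 in both groups.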

How the data were processed

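Libraries of polyadenylated mRNA from 3 shNC and 3 shARHGEF2 samples of cells labelled HepG2 were made with a dUTP kit that keeps strand and with unique molecular identifiers, and sequenced as pairs on an Illumina instrument. The authors deposited 1 table of FPKM values for 27605 genes, with the 6 libraries in columns. The submitters' processing notes name HISAT2 2.0.4, StringTie 1.3.4d, cutadapt 1.9, UMI-tools, DESeq2, edgeR and hg19, without settings or order, and strand use in counting is not stated. The fold change, p-value and q-value columns of the authors' own comparison were not used.

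FPKM values as deposited were transformed to log2(FPKM + 1) and fitted with limma 3.58.1 (R 4.3.3, statmod 1.5.0; eBayes with trend and robust variances) keeping the 12291 genes whose 6 values averaged 0.5 FPKM or more. P-values are two-sided, with Benjamini-Hochberg adjustment over all genes tested, and the threshold for a call was an adjusted p of 0.05. A log2 difference on this scale understates the change of low genes. Single genes were also compared by the two-sided exact permutation test, which cannot go below 0.1 for 3 against 3 libraries. Lists were described by counts and medians and not tested. Depth was estimated from the spacing of FPKM values among low genes as 19725000 to 22940000 read pairs per library. Of those values, 39.8% to 41.1% lay within 0.1 of a whole number, where evenly spread values give 20%. The depth was chosen to bring these same values near whole numbers, so 20% is not the chance level for it. Reads were not recovered, no count test was run, and values near 0.5 FPKM rest on few reads.

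The 34 genes, the other lists and the tests were chosen with earlier results of these data known. Every one of the 34 genes is given. Values in each library are given for ATF4, DDIT3, genes with an unadjusted p under 0.05, and the highest and lowest of each role, with CHAC1, SESN2, MTHFD2 and JDP2 added after their values were seen. Of each other list the genes with the smallest p are named, except for an item that is not reported here. Gene positions, exon overlaps and GC content came from GENCODE 29 (GRCh38), in which 94.7% of the 112516 listed transcripts were found. Promoter windows came from RefSeq (GRCh38.p14). Alternatives were a pseudocount of 0.1, 2 other filters, limma without trend or robust variances, quantile normalization, a replicate block, each library left out, and, chosen after seeing the data, removal of a GC trend (loess, span 0.3). The fit was tested on simulated data. Tables and figures were made with Python 3.11.15, pandas 2.3.3, numpy 2.4.6, SciPy 1.17.1 and matplotlib 3.10.9.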

Additional observations from a re-analysis of the deposited data

How the results depend on the processing

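The count of ATF4-linked genes at an unadjusted p under 0.05 stayed between 5 and 10 in all 13 alternatives. The call of DDIT4 did not: the number called was 0 in place of 1 with the GC trend removed, without trend or robust variances, without a filter and under quantile normalization, and 0 to 1 as single libraries were left out. Over all genes, the 34 calls became 54 with a filter of 1 FPKM in 3 or more libraries, 7 without trend or robust variances, 1 without a filter and 19 under quantile normalization. They became 6 without shARHGEF2 replicate 3 and 102 without shNC replicate 3 as the extremes of leaving out 1 library. The non-overlapping ATF4-linked genes numbered 12 with the GC trend removed and under quantile normalization, and 9 to 14 as single libraries were left out, where fewer libraries make overlap less likely. As single libraries were left out, the same count for the ER chaperone genes was 9 to 12, beside 7 of 24 in the main fit. The shares of all genes tested without overlap or with an unadjusted p under 0.05 were not computed for the alternatives. Changes in these counts are therefore not read as results about the lists. The median log2 difference of the ATF4-linked genes ranged from -0.104 to 0.0107 without single libraries, and was positive only without shNC replicate 2. ARHGEF2 kept its log2 difference of -1.47 without a filter, at an adjusted p of 0.0701.

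Correlations of the residuals between libraries of the same number were 0.18, 0.16 and -0.10, so the numbers were not taken to pair the libraries. With a replicate block, limma called 0 genes and 0 ATF4-linked genes. An unadjusted p under 0.05 was reached by 8 of 33 ATF4-linked genes, 4 higher and 4 lower in shARHGEF2. It was reached by 11 of 24 ER chaperone genes, 10 higher and 1 lower. The share of all genes tested at that threshold was not computed with the block. ARHGEF2 then had a log2 difference of -1.47 and an adjusted p of 0.0716.

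Of the 33 genes, 22 kept the sign of their log2 difference in every alternative and 11 did not. Leaving out single libraries gave -0.0089 to 0.21 for ATF4, -0.183 to 0.0409 for ATF5, -0.10 to 0.0001 for PHGDH, -0.35 to 0.10 for PSPH and -0.0318 to 0.218 for PYCR1. The range was -0.22 to 0.0466 for CEBPG, -0.15 to 0.0279 for VLDLR, -0.10 to 0.29 for SLC38A2, -0.17 to 0.0182 for SLC6A9, -0.30 to 0.069 for XPOT and -0.16 to 0.18 for JDP2. JDP2 was also at -0.0407 with the GC trend removed. The cause of these changes was not tested. Values near 0.5 FPKM are limited by depth.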

Other observations

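A further list of 17 tested genes linked to ATF4 but outside the group described above had a median log2 difference of 0.24. None was called by limma, and 5 of 17 (29.4%) reached an unadjusted p under 0.05, 4 higher and 1 lower in shARHGEF2, where all genes tested gave 13.7% (8.1% higher and 5.55% lower). WIPI1, a gene of autophagosome formation, stood at 6.02, 6.22 and 8.31 FPKM in shNC and at 9.03, 9.99 and 10.3 FPKM in shARHGEF2, a log2 difference of 0.47 (limma adjusted p = 0.188). PCK2, the mitochondrial carboxykinase, stood at 14.9, 14.2 and 15.4 FPKM in shNC and at 13.1, 11.9 and 11.9 FPKM in shARHGEF2, a difference of -0.25 (limma adjusted p = 0.302). The other 3 with a low p, named after their values were seen, encode proteins of cell death: TNFRSF10B, a death receptor that CHOP induces, at 0.30, BBC3 at 0.66 and PMAIP1 at 0.40 (limma adjusted p = 0.305, 0.316 and 0.366). For TNFRSF10B all 3 knockdown libraries, at 28.2, 32.6 and 30.8 FPKM, lay above the controls, at 21.3, 26.8 and 26.0 FPKM, while BBC3 and PMAIP1 overlapped.

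Among 13 tested genes of folate one-carbon metabolism outside the mitochondrial group, none was called by limma, and 2 (15.4%) reached an unadjusted p under 0.05, where all genes tested gave 13.7%. SLC25A32, the mitochondrial folate carrier, had means of 2.48 and 1.72 FPKM in shNC and shARHGEF2, a log2 difference of -0.36 (limma adjusted p = 0.352). The median of the list was -0.11.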
